A study of Homo sapiens with 14 samples.

Results

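The chaperonin containing TCP1, also called CCT or TRiC, folds newly made proteins in the cytosol. It is a pair of rings stacked back to back, and each ring is built from 1 copy of each of 8 related subunits, which close over an unfolded client and open again as ATP is hydrolysed. Actin and tubulin are its best known clients. The subunits are encoded by TCP1, CCT2, CCT3, CCT4, CCT5, CCT6A, CCT7 and CCT8, which lie on 7 chromosomes and are expressed in nearly all dividing cells. These 8 of 19970 protein-coding genes were listed by name, but the list was chosen with earlier results of these data known. ZNF143 is a zinc finger transcription factor that binds promoters through long motifs called SBS (SBS1 and SBS2), and CTCF is a zinc finger protein that binds another motif and helps to fold chromosomes.

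ChIP-seq of ZNF143 with a polyclonal antibody from Proteintech was analysed in HEK293T cells, an established human embryonic kidney line, in which ZNF143 carries the degradation tag FKBP12F36V. All samples came from 1 cell line with this tag. The groups were 4 samples left without treatment and 4 samples given 0.5 µM dTAG-V1, a small molecule that directs the tagged ZNF143 to degradation, for 30 min. The study asked with these data where this antibody gives peaks when ZNF143 is present and after its depletion, and whether those peaks hold SBS or CTCF motifs. The 6 CTCF ChIP-seq samples of the series were not analysed here. Each group of 4 is represented by 1 list of narrow peaks on hg38, of 20429 peaks for the untreated and 35287 for the dTAG-V1 group. Neither list gives values by replicate, so that no difference between conditions could be set against replicate error and none was tested. Sequencing depth is unknown. Scores, fold enrichments and q-values are given within each list and were not compared between the lists. The labels describe the first group as untreated, although its peaks are named after DMSO. Peak lists carry no expression, so that the cell line could not be checked against its markers.

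Of the 8 chaperonin genes, 7 had a promoter peak in the untreated list, where 40.5% of all protein-coding genes had one, and all 8 had a promoter peak in the dTAG-V1 list, against 48.2% of all genes. A peak was counted for a promoter when its centre lay at most 2 kb before or 1 kb after an annotated transcription start site (TSS) of the gene. The same 7 genes had one in both lists, against 35.9% of all genes. The remaining gene, CCT2, had a peak with dTAG-V1 only, as did 11.0% of all genes. The peaks fell into a strong and a weak set. TCP1, CCT3, CCT6A, CCT7 and CCT8 had a promoter peak in decile 1 of the untreated list, which holds the highest scores, as did 10.1% of all genes. These 5 were also in decile 1 of the dTAG-V1 list, which held a promoter peak of 13.4% of all genes. CCT4 and CCT5 ranked in the lower deciles of both lists, and no chaperonin promoter lay between the sets.

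The strong and the weak set are described next by the sites under their peaks. Sites were found with matrices learned from summits, of the untreated list for SBS1 and SBS2 and of the dTAG-V1 list for CTCF. The p of a site is the chance that a random stretch with the base composition of the genome scores as high. The best site of each of the 8 promoter peaks is printed 5′ to 3′ on the strand of the motif, from hg38, in order of its p within the SBS sites. Capitals mark the core letters of the matrix, which are the first 6 letters of SBS1, letters 2 to 7 and 9 to 14 of SBS2, and letters 7 to 12 of CTCF. Sites of 28 letters are an SBS2 hit joined to the SBS1 hit that overlaps it, and their p and their distance from a summit are those of the SBS2 hit.
CCT7 (SBS2 with SBS1): gACTACAaGTCCCAgggtgcttcgggcc
TCP1 (SBS1): TTCCCGccgtgccccgcggc
CCT3 (SBS2 with SBS1): aACCACAaCTCCCAgtgtgcccggaaaa
CCT8 (SBS1): TTCCCAgaaggctgtgcgtg
CCT6A (SBS1): TTCCCGgcattccgtgctcc
CCT4 (SBS1): CACCCAcagcgccccgggcg
CCT5 (SBS2): aCCTCCCcCTCCCCggcttcc
CCT2 (CTCF): ccacgaGGGGGAgg

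In the same order these sites lie at chr2:73234623-73234650 (CCT7, plus strand), chr6:159789646-159789665 (TCP1, minus), chr1:156338815-156338842 (CCT3, minus), chr21:29073651-29073670 (CCT8, minus), chr7:56051584-56051603 (CCT6A, minus), chr2:61888760-61888779 (CCT4, minus), chr5:10250121-10250141 (CCT5, plus) and chr12:69585702-69585715 (CCT2, plus). By annotation, the site of CCT7 is in an intron of that gene, and that of CCT5 in an intron of alternative transcripts. The sites of TCP1 and CCT8 lie in untranslated exons of alternative transcripts, upstream of the canonical TSS, and that of CCT2 in an untranslated exon. The site of CCT6A is in an untranslated exon of PSPH, that of CCT3 in one of TSACC and that of CCT4 in an exon of COMMD1, each a neighbour on the opposite strand.

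The best SBS site had a p of 3.94e-09 at CCT7, 7.3e-09 at TCP1, 2.48e-08 at CCT3, 5.28e-08 at CCT8 and 7.33e-08 at CCT6A. In the weak set it had a p of 3.57e-06 at CCT4 and 3.97e-05 at CCT5. The dTAG-V1 peak of CCT2 held no SBS site. All 5 strong peaks and neither of the weak untreated peaks therefore had a site at p 1e-06 or lower. This limit was chosen after seeing the data, and the SBS matrices were learned at the same p from summits of the untreated list. The contrast between the sets is therefore a description and not independent support. Such a site was in 86.8% of the 1587 untreated promoter peaks of decile 1, in 6.0% of the 2433 in deciles 7 to 10, and in 29.7% of all 7701. At the search threshold of p 5e-05, an SBS site was in the untreated promoter peak of 7 chaperonin genes, which are all that had one. Of all untreated promoter peaks, 76.8% held such a site, and 33.1% of all protein-coding genes had such a peak. That threshold is permissive, since 67.8% of all protein-coding genes hold an SBS site from 300 bp upstream to 100 bp downstream of the canonical TSS, with or without a peak. The matrices were learned on the odd-numbered autosomes, which hold CCT3, CCT5, CCT6A and CCT8, so that their own peaks contributed to the matrices, while the peaks of TCP1, CCT4, CCT7 and CCT2 did not.

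Within the strong set the arrangement of the sites differed from gene to gene. At TCP1, a second SBS1 site lay directly beside the best one, on the other strand:
TCP1 second site: TTCCCGgctgccccggcccg
It covers chr6:159789626-159789645 and had a p of 9.45e-07. Both carry the same 6 core letters, and the summit of the untreated peak was 3.5 bp from the centre of the best site and 16.5 bp from that of the second. At CCT3, a second joined SBS2 and SBS1 site lay on the same strand:
CCT3 second site: gACTACAaCTCCCActtcaccctgcgcc
It covers chr1:156338763-156338790, had a p of 1.79e-06, and started 52 bp from the start of the best site, so that the pair spans 80 bp. The untreated summit lay between the pair, 22 bp from the centre of the SBS2 hit of the best site and 30 bp from that of the second. The best sites of CCT6A and CCT8 were 7.5 bp and 13.5 bp from their summits. Each of the 5 strong peaks held 2 SBS sites at p 1e-05 or lower, CCT4 held 1 and CCT5 none. The median untreated promoter peak of decile 1 also held 2, and 61.3% of them held at least that many, against 4.36% in deciles 7 to 10. These counts depend on the matrices. With matrices learned on the even-numbered autosomes, the second site of CCT8 had a p of 1.68e-05 and the site of CCT4 one of 1.5e-05. Neither then passed p 1e-05.

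CCT7 was the exception in position. Its best SBS site was the one with the lowest p of all the chaperonin genes but lay 341 bp from the untreated summit, inside an intron. A weaker SBS1 site, with a p of 5.57e-06, lay across the canonical TSS at chr2:73234298-73234317, 15.5 bp from the summit. Only 3.49% of the untreated promoter peaks of decile 1 with an SBS site had the best one more than 300 bp away, and 70.9% had it within 30 bp. The weaker site and the surroundings of the intronic site (chr2:73234603-73234670, plus strand, the joined site in capitals) read as follows.
CCT7 site at the TSS: AACCCAcaatgcctcgcgca
CCT7 intron: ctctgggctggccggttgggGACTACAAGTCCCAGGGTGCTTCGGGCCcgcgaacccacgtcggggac
The untreated peak of CCT7, 781 bp wide, covered both sites, with a single summit listed at the TSS.

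**Figure D1:**
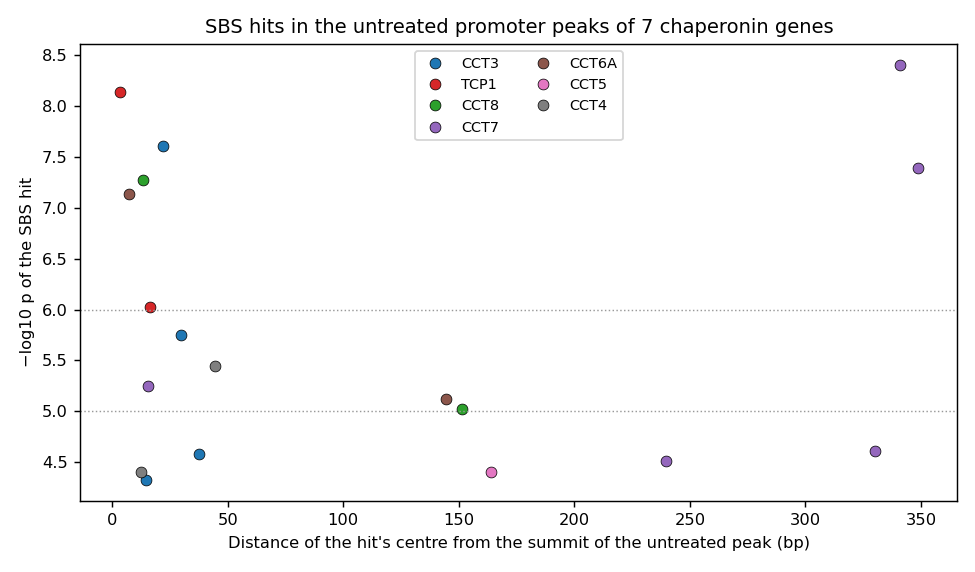
SBS hits in the untreated promoter peaks of 7 chaperonin genes, with the distance of the hit's centre from the summit in bp on the x axis and −log10 of the hit p on the y axis. Each point is 1 hit to the SBS1 or SBS2 matrix at p 5e-05 or lower, so that a joined site gives a point for each matrix where their centres differ, and the dotted lines mark p 1e-05 and 1e-06. Hits above the upper line belong to TCP1, CCT3, CCT6A, CCT7 and CCT8, and those of CCT7 are the only ones of them more than 300 bp from the summit.

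The peak of CCT3, which encodes the gamma subunit, was the strongest of the chaperonin genes in both lists. In the untreated list it covered chr1:156338215-156339165, had a fold enrichment of 30.8 and a −log10 q of 9958, and ranked 228 by score. With dTAG-V1 it had a fold enrichment of 21.9, a −log10 q of 1949 and a rank of 554. Fold enrichment is the signal at the summit over the local background as MACS2 gives it, and its median over promoter peaks was 4.35 when untreated and 3.24 with dTAG-V1. The summits lay 518 bp and 488 bp upstream of the canonical TSS of CCT3, farther from it than at any other chaperonin gene. The untreated summit was 22 bp from a TSS of TSACC, which encodes a co-chaperone of a testis-specific kinase and is transcribed away from CCT3.

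TCP1, the alpha subunit and the namesake of the complex, had a peak at chr6:159789320-159789978 with a fold enrichment of 25.6 in the untreated list and a rank of 992. With dTAG-V1 the fold enrichment was 11.7 and the rank 1485. The summits were 50 bp and 70 bp upstream of the canonical TSS. The dTAG-V1 peak was 1211 bp wide and the untreated peak 659 bp, and the wide peak extended over the promoter of MRPL18, a protein of the mitochondrial ribosome whose canonical TSS is 865 bp away. Promoter peaks of the dTAG-V1 list had a median width of 505 bp, and 1 in 10 was wider than 925 bp.

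CCT8, the theta subunit, had a peak at chr21:29073191-29073906 with a fold enrichment of 27.6 and a rank of 1098 in the untreated list, and a fold enrichment of 18.2 and a rank of 1185 with dTAG-V1. Both summits fell on the same base, 26 bp upstream of the canonical TSS. CCT7, the eta subunit, had a peak at chr2:73234010-73234790 with values of 28.1 and 1193, and of 13.6 and 1704 with dTAG-V1, for fold enrichment and rank. The summits were 16 bp and 22 bp upstream of the canonical TSS. The dTAG-V1 peak of CCT7 was 1234 bp wide, like that of TCP1 over the 90th percentile. CCT6A, the zeta subunit, had the lowest rank of the strong set in the untreated list, 1787, with a fold enrichment of 20.4 at chr7:56051147-56051922. With dTAG-V1 its fold enrichment was 10.7 and its rank 1723. Its summits lay 179 bp and 161 bp upstream of the canonical TSS.

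The weak set stood far below. CCT5, the epsilon subunit, had a peak at chr5:10249877-10250327 with a fold enrichment of 2.93, a −log10 q of 10.14 and a rank of 13034 in the untreated list, and of 3.05, 10.93 and 18289 with dTAG-V1. CCT4, the delta subunit, had a peak at chr2:61888319-61888971 with a fold enrichment of 2.73, a −log10 q of 6.17 and a rank of 16544, and of 2.84, 7.61 and 23421 with dTAG-V1. All 4 fold enrichments were below the promoter median of their list. The lowest −log10 q of either list was 2.01.

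**Figure D2:**
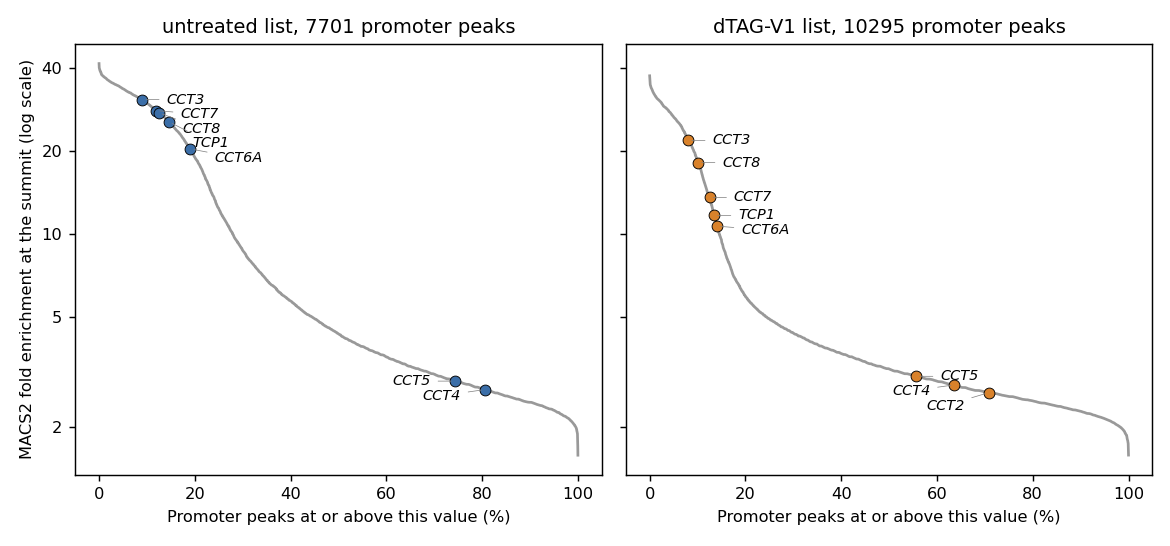
MACS2 fold enrichment at the summit (y axis, log scale) of all promoter peaks of the untreated list and of the dTAG-V1 list, drawn against the share of promoter peaks in percent with a value at least as high (x axis). Points are the chaperonin genes, 7 untreated and 8 with dTAG-V1. In both panels CCT3, TCP1, CCT6A, CCT7 and CCT8 lie on the steep upper part of the curve at a fold enrichment of 10.7 or more, and CCT4 and CCT5 lie below the median, with CCT2 beside them in the dTAG-V1 list.

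CCT2, which encodes the beta subunit, had no untreated peak at its promoter or in its gene body, and the nearest untreated peak was 115 kb from the canonical TSS. In the dTAG-V1 list a peak of 269 bp lay at chr12:69585470-69585738, with its summit 189 bp downstream of the canonical TSS in intron 1. It had a fold enrichment of 2.66, a −log10 q of 7.1 and a rank of 24322, the lowest score of the 8 promoters, and the microRNA genes MIR3913-1 and MIR3913-2 have it in their promoter window as well. It held no SBS site. It held the CTCF site printed above, with a p of 7.38e-07 and 60.5 bp from the summit, and a weaker CTCF site 43.5 bp from the summit with a p of 3.33e-05. A CTCF site at p 1e-06 or lower was in 10.9% of all dTAG-V1 promoter peaks. Around the canonical TSS of CCT2, from 300 bp upstream to 100 bp downstream, the best SBS score had a p of 7.97e-05, and 76.0% of protein-coding genes had one as low or lower. In this window CCT3, whose best site lies outside it, had a p of 0.000275, with a share of 91.8%. At the remaining chaperonin genes the share ran from 3.2% at TCP1 to 63.4% at CCT5. The measure therefore does not set CCT2 apart from the strong set.

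CTCF sites in the untreated list were in the promoter peaks of CCT6A and CCT7, or 2 of 8 genes, where 18.6% of all protein-coding genes had a promoter peak with a CTCF site, so that this count is near that of all genes. Counted by peaks, it was 2 of the 7 genes with an untreated promoter peak. Of all untreated promoter peaks 41.7% held a CTCF site, and of those in decile 1 46.3%. The site of CCT6A had a p of 2.17e-05 and lay 217.5 bp from the untreated summit, and that of CCT7 had a p of 3.78e-05 and lay 132.5 bp from it. Neither passed p 1e-05, and neither was within 100 bp of the summit.

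Where both lists had a promoter peak, its summit was in nearly the same place in the strong set. The distance between the untreated and the dTAG-V1 summit was 0 bp at CCT8, 6 bp at CCT7, 18 bp at CCT6A, 20 bp at TCP1 and 30 bp at CCT3. It was 24 bp at CCT5 and 98 bp at CCT4. Over all shared promoter peaks the median was 27 bp. In decile 1 of the untreated list it was 4.0 bp, so that 4 of the 5 strong chaperonin peaks had a larger distance than the median peak of their decile, and in deciles 7 to 10 it was 80.0 bp. With dTAG-V1 the summit of CCT3 fell on the centre of the SBS2 hit of the second site instead of between the pair.

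**Figure D3:**
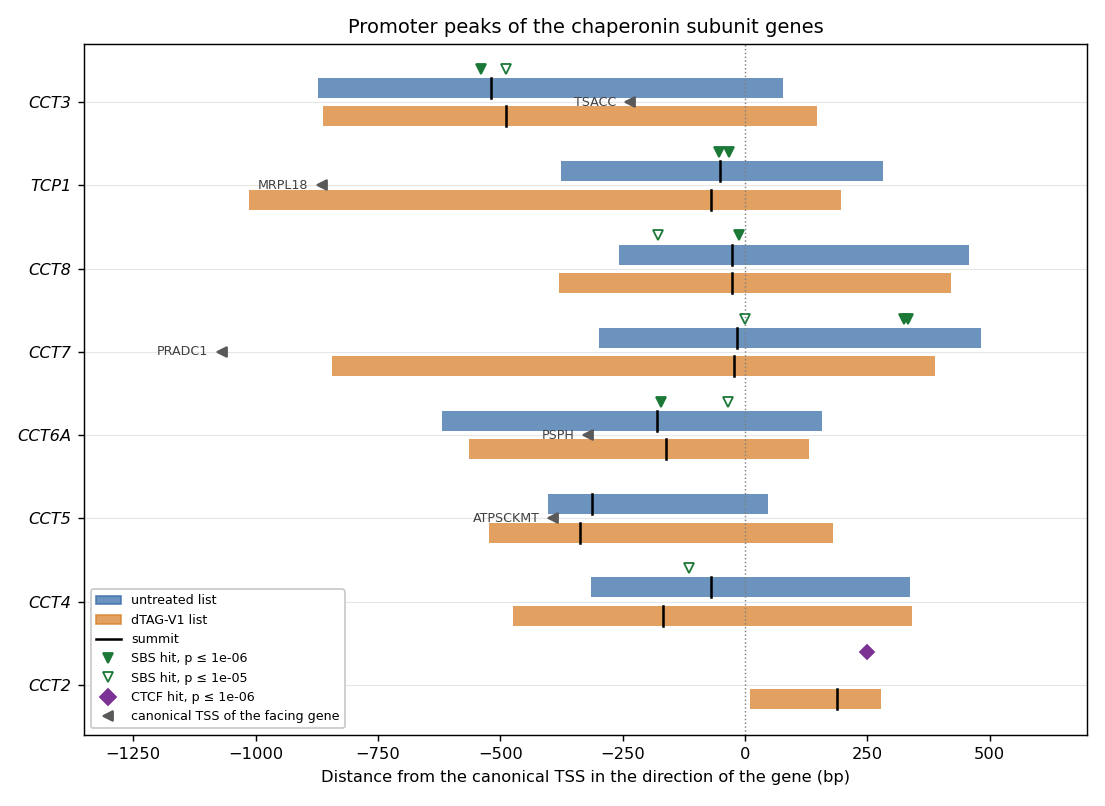
Promoter peaks of the 8 chaperonin genes in the untreated (blue) and dTAG-V1 (orange) list, drawn to scale by the distance in bp from the canonical TSS in the direction of each gene (x axis), with 1 row per gene. Black ticks are summits, triangles and diamonds are SBS and CTCF hits at p 1e-05 or lower, filled at p 1e-06 or lower, and grey arrowheads are canonical TSSs of protein-coding neighbours on the other strand, of which that of COMMD1, the neighbour of CCT4, lies outside the axis. The untreated summits of TCP1, CCT6A, CCT8 and CCT3 lie within 22 bp of their best SBS site, the strongest sites of CCT7 lie downstream of its summit, and CCT2 has no untreated peak.

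Most chaperonin genes shared their peak with another gene. At 6 of the 7 genes with an untreated promoter peak, all but CCT8, the peak was also a promoter peak of a protein-coding gene on the opposite strand, transcribed away from the chaperonin gene. Among all 8097 genes with an untreated promoter peak, 29.0% shared it with a gene on the opposite strand. The neighbours were MRPL18 at TCP1, TSACC at CCT3, COMMD1 at CCT4, ATPSCKMT at CCT5, PSPH at CCT6A and PRADC1 at CCT7. The distance between the canonical TSSs was 234 bp at CCT3, 321 bp at CCT6A, 392 bp at CCT5, 865 bp at TCP1 and 1069 bp at CCT7. At CCT4 the canonical TSS of COMMD1, a regulator of copper handling, is 17018 bp away, but another TSS of that gene was 1 bp from the untreated summit.

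The untreated summit was not always nearer to the chaperonin gene, and at CCT5 the order depended on the TSS used. There the summit lay 313 bp from the canonical TSS of CCT5 and 79 bp from that of ATPSCKMT, a methyltransferase of the mitochondrial ATP synthase. Measured to the nearest annotated TSS of either gene, it lay 38 bp from CCT5 and 70 bp from ATPSCKMT. At CCT6A it lay 179 bp from the canonical TSS of CCT6A and 142 bp from that of PSPH, the phosphatase of the last step of serine synthesis, and the nearest TSSs were 99 bp and 18 bp away. At CCT3 the canonical TSS of TSACC was 284 bp away, against 518 bp for CCT3, and the nearest TSSs were 22 bp and 499 bp away. At TCP1 and CCT7 the canonical TSS of the chaperonin gene was the nearer, at 50 bp and 16 bp, against 815 bp and 1053 bp for MRPL18 and PRADC1, and the nearest TSSs gave the same order. The peaks at these 6 promoters count for both genes and were not assigned to the chaperonin gene alone. This holds also at TCP1 and CCT7, where position places the summit nearer to the chaperonin gene, because which gene a peak acts on was not tested.

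Short words were searched on both strands in the 201 bp around each canonical TSS, and the share of all protein-coding genes is given beside each count. CCAAT, the box bound by NF-Y, was present at CCT2, CCT3, CCT6A and CCT8, against 25.2% of all genes. The heat shock element GAANNTTC, the word bound by heat shock factors, was present at CCT3 and CCT4, against 3.17%. The ETS word CTTCCGG was present at CCT2 and no other chaperonin gene, against 11.2%. The Sp1 word GGGCGG was present at CCT2, CCT3 and CCT7, against 53.7%. The NRF1 word GCGCATGC and the YY1 word AANATGGC were present at none, against 2.93% and 7.09%. No searched word was present at all 8 promoters. GC content of these windows ran from 57.2% at CCT3 and CCT5 to 70.6% at CCT6A, around the median of 66.7% of all genes.

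The short SBS words were less frequent than the matrix sites. Within 100 bp of the untreated summit, the word ACTACA was present at CCT3 alone, against 51.6% of the untreated promoter peaks of decile 1. The word TTCCCA was present at CCT8 alone, against 39.7%. The word CCCANNATG was present at CCT7 alone, against 19.8%. At TCP1 and CCT6A the best SBS1 site begins with TTCCCG in place of TTCCCA, and so contains no such word. In the SBS1 matrix, the letter at this position has a frequency of 0.1257 for G and 0.8743 for A.

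Other peaks lay within the gene bodies of CCT3 and CCT5. The untreated list held 1 such peak, in CCT3, or in 1 of the 8 genes, where 18.6% of all protein-coding genes had a gene-body peak. The dTAG-V1 list held 4, of which 3 were in CCT3 and 1 in CCT5, or in 2 of the 8 genes, against 30.6% of all genes. The peak found in both lists lay in intron 1 of a longer transcript of CCT3, at chr1:156356873-156357156 when untreated, with a rank of 15343 and a fold enrichment of 2.78. Its untreated summit was 18826 bp upstream of the canonical TSS. A dTAG-V1 only peak in the same intron had its summit 21871 bp upstream. Intron 1 below is that of this longer transcript, and intron 7 that of the canonical transcript. Each of the CCT3 peaks held a CTCF site at p 1e-05 or lower, as did 18.5% of all untreated and 34.7% of all dTAG-V1 gene-body peaks. The CTCF matrix was learned from dTAG-V1 summits on odd-numbered autosomes, which include that of CCT3. These sites and the higher dTAG-V1 share are therefore a description and not independent support. The best site of each CCT3 peak is printed here because CTCF was the motif that these peaks and the dTAG-V1 peak of CCT2 shared, with the core letters in capitals.
CCT3 intron 1, both lists: ccgctaGGTGGCgg
CCT3 intron 1, dTAG-V1 only: ccaggaGAGGGCgt
CCT3 intron 7, dTAG-V1 only: ccagtaGATGGAgc
The first, at chr1:156357100-156357113 on the plus strand, had a p of 2.61e-07 and lay 11.5 bp from the untreated summit. The second, at chr1:156360144-156360157 on the minus strand, had a p of 1.47e-06 and lay 12.5 bp from the summit of a peak at chr1:156359892-156360343. The third, at chr1:156319784-156319797 on the minus strand, had a p of 7.03e-07 and lay 65.5 bp from the summit of a peak at chr1:156319524-156319863. The peak in both lists also held an SBS1 site with a p of 4.09e-06, 198.5 bp from the untreated summit, and the dTAG-V1 only peaks of CCT3 held no SBS site. The peak in CCT5 lay over exon 11, the last exon, at chr5:10265866-10266312, ranked 31901 of 35287 and held no site of either kind.

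Genes that work with the chaperonin are given next. Of 36 related genes, 25 had a promoter peak in both lists, 2 in the untreated list only, 2 in the dTAG-V1 list only and 7 in neither. Over all protein-coding genes, 35.9% had one in both lists and 11.0% in the dTAG-V1 list only. In decile 1 of the untreated list there were 7 of the 36, against 10.1% of all genes. All 6 genes of prefoldin, the cochaperone that hands unfolded actin and tubulin to the chaperonin, had a peak in both lists. PFDN6 ranked 58 with a fold enrichment of 37.0 when untreated, above every chaperonin gene, followed by PFDN5 at 5204 and VBP1 at 6366, whereas PFDN2, PFDN1 and PFDN4 ranked between 15847 and 18542. Of the 4 phosducin-like cofactors, which bind the chaperonin and modulate folding, TXNDC9 ranked 380 with a fold enrichment of 37.5, PDCL ranked 14022, and PDCL2 and PDCL3 had no peak in either list.

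Among the chaperonin relatives, MKKS, a chaperonin-like protein of the Bardet-Biedl syndrome, ranked 1225 when untreated with a fold enrichment of 17.4. CCT6B, the testis form of the zeta subunit, ranked 4231, BBS10 ranked 14022, and BBS12 had a peak with dTAG-V1 only. The peak of CCT6B held no SBS site, unlike that of CCT6A. HSPD1 and HSPE1, the mitochondrial chaperonin and its lid, share 1 promoter peak, which ranked 3174. Of the cytosolic chaperones, DNAJA1 ranked 1568 with a fold enrichment of 23.5. HSP90AA1, HSPA8 and HSPA4 ranked between 5179 and 5597, HSP90AB1 ranked 14022, and STIP1 had no peak.

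Of 12 genes of clients, ACTB ranked 946, TUBB 1087 and FZR1, an activator of the anaphase-promoting complex, 1382, with fold enrichments of 31.9, 25.8 and 31.9 when untreated. All 3 peaks held an SBS site and no CTCF site at the search threshold. Of all untreated promoter peaks of decile 1, 99.3% held an SBS site and 46.3% a CTCF site. Among the other related genes of decile 1, the peaks of PFDN6 and MKKS held both kinds, and those of TXNDC9 and DNAJA1 an SBS site only. MLST8 ranked 5962 and CDC20, TUBA1B and TUBA1C ranked from 12700 to 18849. TUBB4B and GNB1 had an untreated peak only, TUBA1A had a dTAG-V1 peak only, and TUBG1 and ACTG1 had none. The heat shock factors HSF1 and HSF2 had no promoter peak. The chaperonin genes had 5 of 8 promoters in decile 1 and the related genes 7 of 36, against 10.1% of all genes.

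**Figure D4:**
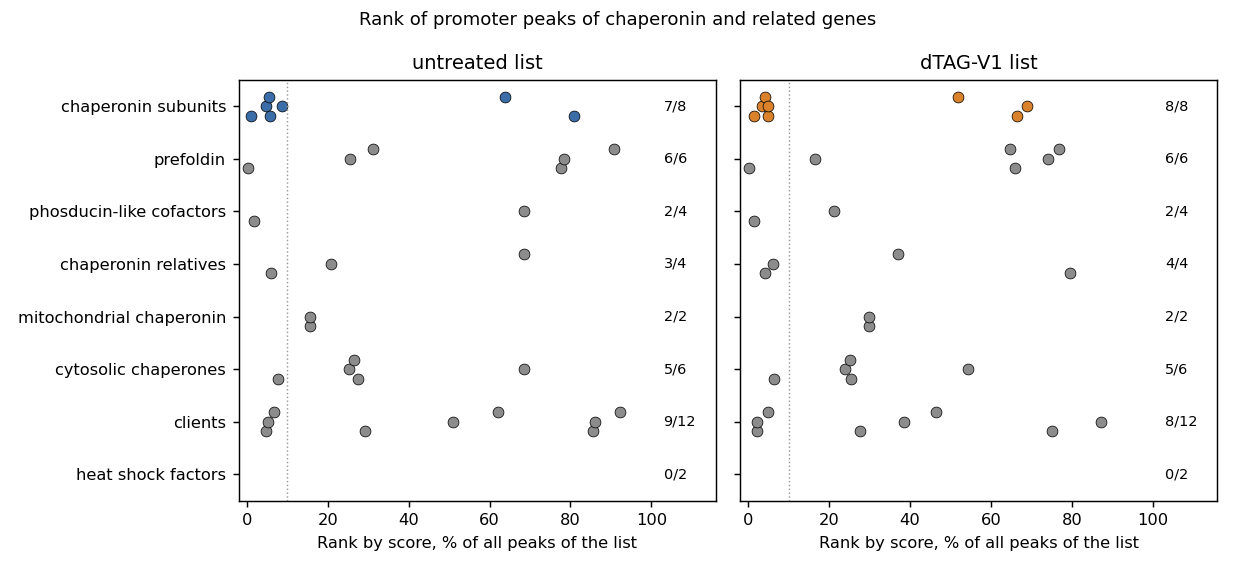
Rank by score of the best promoter peak of each gene, as a percentage of all peaks of the list (x axis, 0 is the highest score), for the chaperonin subunits (coloured) and 7 groups of related genes (grey) in each list. Each point is 1 gene, the dotted line is the limit of decile 1 and the numbers at the right are genes with a promoter peak of all genes in the group. The chaperonin genes form a group of 5 left of the line in both panels, and the other groups have at most 3 genes there.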

How the data were processed

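By the study's methods, reads were mapped by the authors to hg38 with bwa mem, limited to confidently mapped proper pairs, cleared of duplicates and used to call narrow peaks with MACS2, with no control library named. They state that peaks had to occur in each of 4 untreated or in any of 4 dTAG-V1 replicates; whether the deposited lists were so filtered was not tested. Score, fold enrichment (a ratio) and −log10 q-values in the deposited lists are the authors' MACS2 values, on the scale of each list. A list lengthens with depth, so that whether a weak peak is listed can depend on it.

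Here, promoter peaks were assigned with GENCODE release 44 and ranked by score, and peaks of the lists were matched at an overlap of 1 bp. Matrices were learned within 100 bp of the summits on odd-numbered autosomes (10 rounds, pseudocount 0.8, p 1e-06), because whole peaks had given a C-rich SBS1 matrix, and were searched at p 5e-05 in both strands (Python 3.11.15, numpy 2.4.6, pandas 2.3.3, numba 0.67.0, pysam 0.24.0, samtools 1.23.1). The search was tested on simulated sequences. No statistical test was run, since there are no replicate values. The named genes are the 8 members, genes that share their promoter peaks, and the related genes with a peak; those without one are named to complete the count. The members and lists were chosen with earlier results of these data known.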

Additional observations from a re-analysis of the deposited data

How the results depend on the processing

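Of 41 values recomputed under an alternative, 28 stayed within 1.5 times the reported count, 13 moved and 0 reversed. Among peaks with a score above the median of their list, 5 chaperonin genes instead of 8 had a dTAG-V1 promoter peak, against 30.1% of all genes. With short SBS words within 100 bp of the summit in place of matrices, 3 instead of 7 genes had an SBS motif in either list. Of all untreated promoter peaks, 26.3% held TTCCCA in this window, 14.8% ACTACA and 7.88% CCCANNATG. Of all dTAG-V1 promoter peaks, the shares were 21.3%, 13.0% and 4.93%. The share that held any of these words is not given. The genes with a CTCF motif in an untreated promoter peak went from 2 to 0 at p 1e-05, to 0 at p 1e-06, to 0 within 100 bp of the summit, to 0 at p 1e-05 within 100 bp, and to 1 with matrices from even-numbered autosomes. With dTAG-V1 they went from 3 to 1 at p 1e-05, at p 1e-06, within 100 bp of the summit, and at p 1e-05 within this distance. Of all dTAG-V1 promoter peaks, 45.5% held a CTCF site at the search threshold, 23.3% at p 1e-05 and 10.9% at p 1e-06. Of all untreated promoter peaks, these shares were 41.7%, 18.4% and 7.08%. The CTCF counts within 100 bp of the summit and with matrices from even-numbered autosomes are given without a share. With canonical TSSs only, 3 instead of 6 dTAG-V1 summits lay within 100 bp of a TSS, a count given without a share over all genes. These settings narrow the search, except for the short words and the matrices from even-numbered autosomes, which change how a motif is defined. The cause of the differences was not tested. The 5 promoters in decile 1 of each list were also 5 when peaks were ranked by fold enrichment. The settings of p 1e-06, p 1e-05 within 100 bp and even-numbered autosomes were chosen after seeing the data. No paired analysis was possible because each condition is 1 list without replicate columns, and for the same reason no replicate was left out. Depth is unknown, which limits CCT2, CCT4 and CCT5 most, as their peaks had the lowest scores. The replicate rule that the authors state is looser for dTAG-V1 peaks. If applied to these lists, it would admit weak peaks more readily to the dTAG-V1 list. This limits the peaks found with dTAG-V1 only, such as that of CCT2, and was not tested.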
